A study of Mus musculus with 8 samples.

Results

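The *Dlk1-Dio3* locus, an imprinted cluster on mouse chromosome 12, was followed here through 8 of its genes, of 22911 genes named on the array, in liver of *Agpat3* wild-type (WT) and knockout (KO) mice. In the order of the RefSeq gene table they are *Wdr25*, *Begain*, *Dlk1*, *Meg3*, *Rtl1*, *Rian*, *Mirg* and *Dio3*. The locus was chosen by the measured KO and WT values of *Meg3* and *Rian* in these same arrays, so the values of its genes, and the counts of its probes past the thresholds, are a description and support nothing, and no p-value is given for them. Every probe whose RefSeq transcript belongs to one of the 8 genes was taken, detected or not, which gave 13 of the 56605 probes on the array. Of these 13 probes, 8 were well above background on at least 1 array (5 genes), and 5 probes of 3 genes passed the filter on dim probes that was applied to all probes. A probe that passed through 1 genotype alone was picked partly by its reading there, which favors a difference, so the 5 do not stand for all 13.

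AGPAT3 is an acyltransferase that places docosahexaenoic acid (DHA) into phospholipids, and the arrays were made to compare liver transcripts of mice lacking it with those of WT mice. All mice were 10-week-old males of the C57BL/6 background, given no treatment in the labels. The groups were *Agpat3* WT liver (n = 4) and *Agpat3* KO liver (n = 4), with the deletion in the whole body and not in hepatocytes alone. The labels number the livers 1 to 4 within a genotype. The standard errors come from the limma fit, which combines the spread between these samples with that of all fitted probes. Total RNA of frozen liver was labelled with Cy3 and read on 1-color Agilent arrays, 1 array per sample. All 8 arrays shared 1 slide, with the WT arrays in row 1 and the KO arrays in row 2, so genotype and slide row cannot be told apart.

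In this cluster *Dlk1*, *Rtl1* and *Dio3* code for proteins and are expressed mainly from the paternal chromosome. The long noncoding RNAs *Meg3*, *Rian* and *Mirg* are expressed from the maternal chromosome, run in the same direction, and carry small nucleolar RNAs and a large group of miRNAs. The cluster is active in the fetus and placenta and is mostly low in the adult liver, whereas adult brain, pituitary and endothelial cells keep *Meg3*.

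A pair of promoter windows is shown first, because *Meg3* and *Rian* carry the difference between genotypes described next. Each runs from 250 bases before to 50 bases after an annotated start in the RefSeq table (GRCm38.p6, plus strand). The *Meg3* window lies at chr12:109540746-109541045, and capitals mark the searched motifs found on either strand.
Meg3 promoter: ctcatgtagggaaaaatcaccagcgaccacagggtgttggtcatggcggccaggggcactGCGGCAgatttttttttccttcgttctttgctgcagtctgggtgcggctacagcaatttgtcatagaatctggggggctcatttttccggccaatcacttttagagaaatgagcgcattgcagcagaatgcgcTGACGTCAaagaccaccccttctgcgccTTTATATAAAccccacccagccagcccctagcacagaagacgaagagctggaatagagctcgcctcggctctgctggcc
The *Rian* window lies at chr12:109603695-109603994 and has no capitals because no searched motif was found in it.
Rian promoter: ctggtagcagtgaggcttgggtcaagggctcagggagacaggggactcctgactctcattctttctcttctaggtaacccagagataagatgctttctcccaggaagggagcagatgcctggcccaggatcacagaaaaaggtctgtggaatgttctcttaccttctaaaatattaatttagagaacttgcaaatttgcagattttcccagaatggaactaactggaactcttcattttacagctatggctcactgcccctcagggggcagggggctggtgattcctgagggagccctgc
The searched motifs were the cAMP response element TGACGTCA, its core TGACG, the hexamer TGCCGC that the imprint-keeping factor ZFP57 recognizes when methylated, and the box TATAAA. In the *Meg3* window TGACGTCA stood at position -57 from the start, with its core on both strands at -57 and -54. The hexamer stood at -190 on the minus strand. TATAAA stood at -25, overlapped by its copy on the other strand at -29. Among the 32851 promoter windows of the table, 1.79% held TGACGTCA, 20.8% its core, 11.6% the hexamer and 13.6% TATAAA. A match describes letters and not a bound site, and its absence says only that the letters are not in the window.
The first *Meg3* window had 13 CpG dinucleotides and a GC content of 53.7%, beside a median of 7 CpG and 52.7% GC over all windows. The *Rian* window had 0 CpG and 49.3% GC. A second annotated *Meg3* start, inside the gene, had 1 CpG and none of the motifs. Of the protein-coding members, *Dlk1* held only the core TGACG, at -106, *Dio3* had TATAAA at -31 and 25 CpG, and the 5 windows of *Begain* had 34 to 46 CpG and none of the motifs. The window of *Mirg* had 10 CpG and none of the motifs. *Wdr25* and *Rtl1* were not searched.

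The noncoding RNAs of the locus are hosts, and 1 mature miRNA is shown for each of the 3 members that are long noncoding RNAs, with the seed (bases 2 to 8) in capitals.
miR-770-3p, inside *Meg3*: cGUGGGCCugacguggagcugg
miR-370-3p, inside *Rian*: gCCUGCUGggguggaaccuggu
miR-410-3p, inside *Mirg*: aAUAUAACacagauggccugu
The RefSeq table placed 114 mature miRNAs between *Wdr25* and *Dio3*. It held 61 miRNA genes there but 58 hairpins, so not every miRNA gene had a hairpin entry. Of the 58 hairpins, 54 were on the strand of *Meg3*. Of the mature forms 3 lay inside *Meg3*, 6 inside *Rian*, 19 inside *Mirg*, 29 inside *Rtl1* and 57 inside none of these 4 genes. These counts go by position on either strand, so a miRNA inside *Rtl1* need not come from its transcript. The 114 mature forms had 104 distinct seeds, and 10 seeds were shared. Within *Mirg* such a pair was miR-453 and miR-496a-5p.
miR-453: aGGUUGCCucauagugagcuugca
miR-496a-5p: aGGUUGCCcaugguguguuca
No miRNA or small nucleolar RNA of the locus was measured here. The values that follow are those of the member genes themselves.

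*Meg3* was lower in all 4 KO livers than in any WT liver at its brightest probe, *Meg3* (1) (A_51_P455997), which was well above background on all 8 arrays. Values are log2 signals minus the 75th percentile of the same array, so 0 is the level of that percentile. The WT livers read 0.28, 0.85, 0.19 and 0.32, and the KO livers -1.44, -1.33, -2.42 and -1.63. The genotypes did not overlap, with a gap of 1.52 between the lowest WT and the highest KO liver. WT 2 stood highest and KO 3 lowest. The means were 0.41 ± 0.30 (SD, n = 4) in WT and -1.70 ± 0.49 (SD, n = 4) in KO liver, a difference of -2.11 (standard error 0.25) and a 4.32-fold lower signal in KO liver. Set against the WT mean, the KO livers kept 27.8%, 29.97%, 14.1% and 24.4% of the signal, and WT 2 stood at 135%. On the linear scale the spot read 326 to 519 in WT and 55.1 to 110 in KO liver, over a local background of 28 to 36. The arrays measured whole liver, so fewer cells that express *Meg3* and less *Meg3* RNA per cell cannot be told apart.

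**Figure D1:**
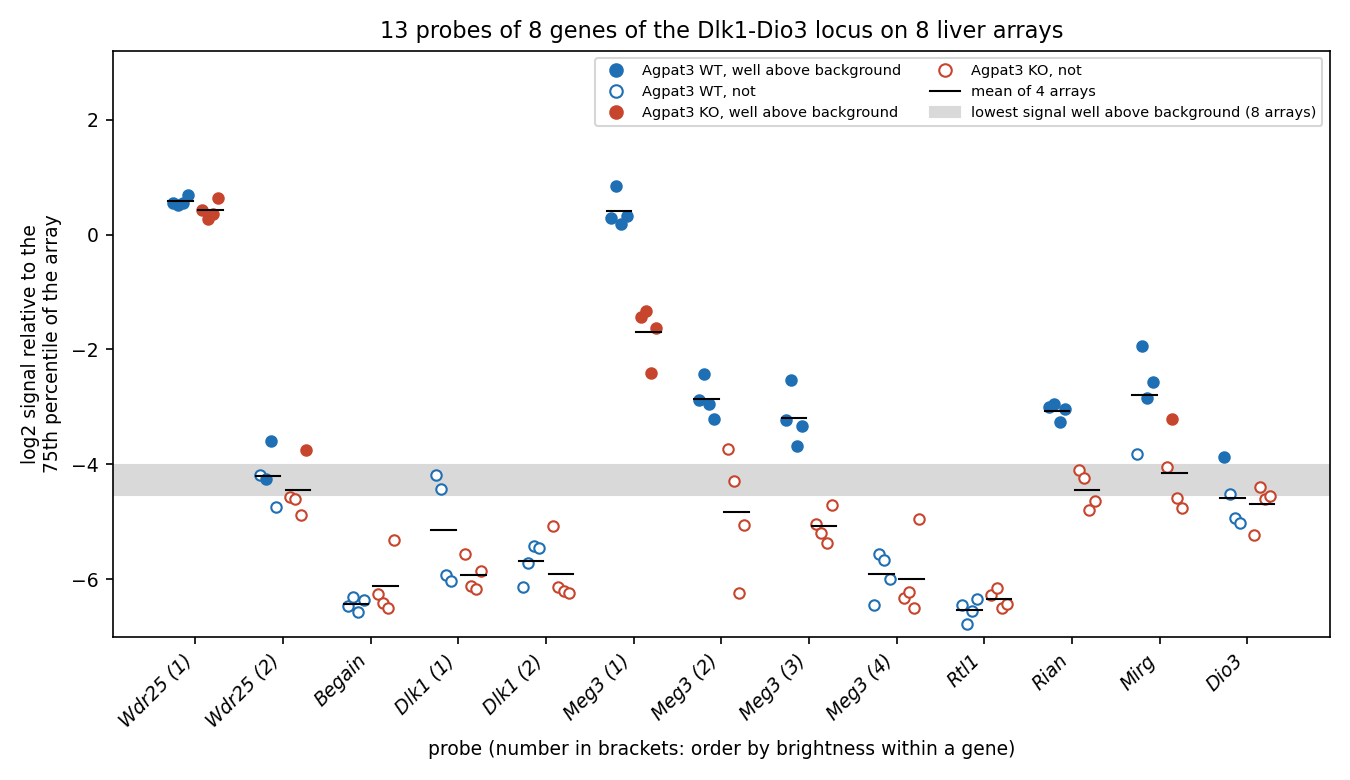
The 13 probes of the 8 genes, in gene order along the x axis, with the log2 signal minus the 75th percentile of the same array on the y axis. Points are the 8 arrays (WT blue, KO red), filled where the spot was well above background, and bars are means of 4 arrays. Grey marks the range, -4.54 to -4.00, of the lowest signal well above background. The filled KO points of the brightest *Meg3* probe lie below its WT points, whereas the KO points of *Meg3* (2), *Meg3* (3) and *Rian* are open.

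The other *Meg3* probes were dimmer. *Meg3* (2) (A_55_P2736010) read -2.87, -2.42, -2.95 and -3.22 in WT and -3.73, -4.29, -6.23 and -5.05 in KO liver. It was well above background in 4 of 4 WT and 0 of 4 KO livers, and the genotypes did not overlap. Its measured difference was -1.96 (standard error 0.49). For a probe with no KO array above background, that difference depends on how dim spots are read, so a bound was also taken, with each dim array set at the lowest signal called well above background on it, or at the probe's own signal where higher. By this bound *Meg3* (2) was at least 2.30-fold lower in KO liver.
*Meg3* (3) (A_55_P2033407) read -3.22, -2.53, -3.68 and -3.33 in WT and -5.04, -5.19, -5.37 and -4.72 in KO liver. It too was above background in 4 of 4 WT and 0 of 4 KO livers without overlap. Its difference was -1.89 (standard error 0.24), at least 1.93-fold lower. *Meg3* (4) (A_65_P01584) was well above background on no array, and its spot read 3.22 to 8.89 over all arrays, which allowed no comparison of genotypes.

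*Rian*, the neighboring host of box C/D small nucleolar RNAs, had 1 probe (A_55_P2723831). The WT livers read -2.998, -2.95, -3.27 and -3.04, and the KO livers -4.10, -4.24, -4.80 and -4.63. Every KO liver was below every WT liver, with a gap of 0.83. The means were -3.06 ± 0.14 (SD, n = 4) and -4.45 ± 0.33 (SD, n = 4), a difference of -1.38 (standard error 0.16). No KO array was well above background, and the bound was at least 2.11-fold lower. The KO spots were still positive and significant against their background on 4 of 4 arrays, at 2.70 to 3.57 times their estimated error, beside 6.44 to 7.72 times in WT liver. The WT spread of *Rian* was narrower than that of *Meg3*, and WT 2 and KO 3 were again the highest and the lowest.

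*Mirg*, the host of the distal miRNAs, had 1 probe (A_66_P121059). The WT livers read -3.83, -1.94, -2.84 and -2.56, and the KO livers -4.05, -3.21, -4.59 and -4.77. The means differed by -1.36, of similar size to *Rian*, but the genotypes overlapped, since WT 1 lay below KO 2. The spot was well above background on 3 of 4 WT arrays, WT 1 being the exception, and on 1 of 4 KO arrays, KO 2. The probe therefore missed the filter on dim probes and was not fitted. Without WT 1 it entered the fit with a difference of -1.70, past the fold and adjusted p thresholds used for all probes. That pass follows from leaving out the lowest WT reading, which was also the WT array that had kept the probe out. With no filter on dim probes the *Mirg* difference was -1.36 (standard error 0.47) and did not pass.

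Across the 5 probes of the long noncoding RNAs that were above background on any array, WT 2 was the highest WT liver in 5 of 5 and KO 3 the lowest KO liver in 4 of 5. After the genotype means were removed, the deviations of the other probes correlated with those of the brightest *Meg3* probe over the 8 arrays at r = 0.883 for *Meg3* (2), 0.645 for *Meg3* (3), 0.801 for *Rian* and 0.628 for *Mirg*. These points share arrays, and genes as well as spots of 1 array are not independent. WT 2 was also the array with the most probes well above background, 31892, where the other 7 arrays had 29888 to 30829. Whether this takes part in the high *Meg3* and *Rian* readings of WT 2 was not tested. Without WT 2 the differences were -1.97 for *Meg3* (1) and -1.34 for *Rian*.

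The protein-coding genes of the cluster had low signals in both genotypes. *Dlk1*, which codes for a transmembrane protein with epidermal growth factor-like repeats related to Notch ligands, had a pair of probes, and neither was well above background in any liver. The spots of the first read 4.00 to 15.5 in WT and 4.00 to 6.30 in KO liver, and those of the second 4.03 to 7.18 and 3.66 to 8.88. *Rtl1*, a retrotransposon-derived gene needed in the placenta, read 2.62 to 3.29 in WT and 3.19 to 3.91 in KO liver, and *Begain*, whose product binds a synaptic scaffold, read 3.19 to 3.65 and 3.24 to 6.91. None of these was well above background in any liver, as was the case for 37.7% of all probes.
*Dio3*, the deiodinase that inactivates thyroid hormone, read -3.87, -4.53, -4.93 and -5.02 in WT and -5.24, -4.39, -4.61 and -4.55 in KO liver. It was well above background only in WT 1, and the genotypes overlapped. No level or difference of these 4 genes could be read beyond the statement that their signals were at or near background.
*Wdr25*, a WD-repeat gene at the edge of the cluster, was the only protein-coding member with a clear signal. Its first probe (A_52_P637418) was above background on all 8 arrays and read 0.55, 0.52, 0.56 and 0.68 in WT and 0.42, 0.26, 0.35 and 0.64 in KO liver. The genotypes overlapped, with KO 4 above 3 of the WT livers. Its difference was -0.16 (standard error 0.09), against -2.11 for *Meg3*. Its second probe was above background on 2 of 4 WT and 1 of 4 KO arrays and differed by -0.25.

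Of the 5 member probes that were fitted, 4 were past both thresholds (a change of over 1.5-fold, with an adjusted p under 0.2 over all fitted probes), all lower in KO liver: the brightest 3 *Meg3* probes and the *Rian* probe. Over all 29067 fitted probes 0.726% were called lower. The same 4 probes had KO values all below the WT values, which 5.17% of all fitted probes had. Since the locus was chosen by this contrast, these shares are given as background and nothing is read from them. The median difference of all fitted probes was -0.03.

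The processing mattered for the dim probes and less for the brightest *Meg3* probe. That probe was past the thresholds in 17 of 17 alternative settings, with differences from -2.24 to -1.49. Its smallest difference came from normexp background correction, which adds an offset to every spot. *Rian* passed in 15 of 16 settings that kept its probe, from -1.495 to -0.29, with normexp giving the value that did not pass. *Meg3* (3) passed in 15 of 16, from -2.05 to -0.31, and *Meg3* (2) in 9 of 16, from -2.32 to -0.32. *Wdr25* passed in 0 of 17. With 1 liver left out in turn, the brightest *Meg3* probe ran from -2.24 to -1.87 and *Rian* from -1.495 to -1.26, and both passed in 8 of 8 fits. *Meg3* (2) passed in 3 of 8. A filter that kept only probes above background on all 8 arrays removed *Rian*, *Meg3* (2) and *Meg3* (3).

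**Figure D2:**
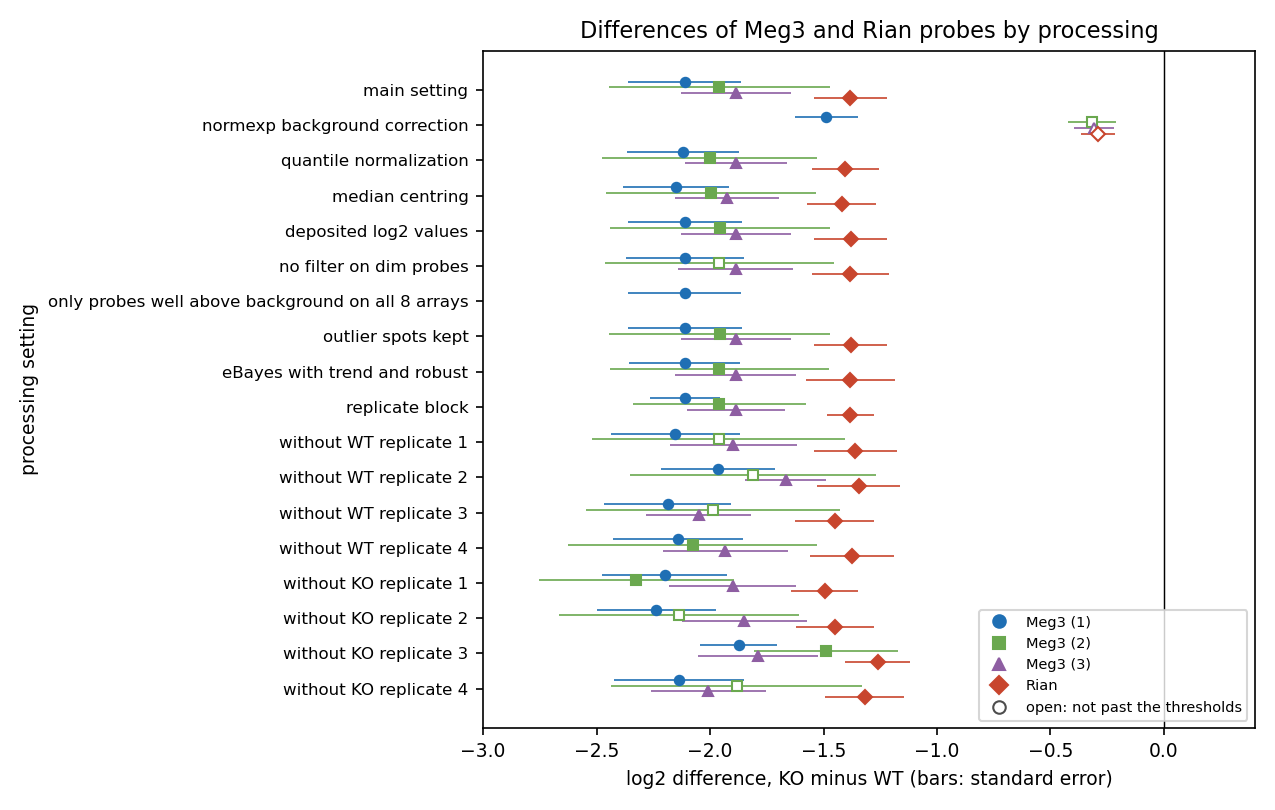
Differences between KO and WT liver (x axis, log2, with standard errors) of the 3 fitted *Meg3* probes and of *Rian* under each processing setting (y axis). Filled symbols passed the thresholds and open symbols did not. The normexp row alone moves the dim probes close to 0, while the brightest *Meg3* probe stays at -1.49.

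*Agpat3* itself, the deleted gene, checked the labels. Its brighter probe read 5.65, 5.66, 5.80 and 5.88 in WT and -0.48, 0.02, -0.58 and -0.47 in KO liver, a difference of -6.12 (standard error 0.14, limma adjusted p = 4.46e-07). Hepatocyte markers were bright, with 7 of 7 measured markers above background on all arrays. Pairs of arrays correlated at 0.988 to 0.996 within WT, 0.990 to 0.993 within KO and 0.985 to 0.992 between genotypes.

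The genes that flank the cluster had much smaller differences than *Meg3* and *Rian*. Since *Meg3* and *Rian* were chosen by their difference and the flanking genes were not, nothing is read from that contrast. Of the nearest 15 fitted genes on each side of the interval from *Wdr25* to *Dio3*, 0 of 30 were called by limma, and 4 had an unadjusted p under 0.05. Their differences ran from -0.35 to 0.31 with a median of -0.12, and 23 of the 30 were below 0. Over all genes, 1.76% were called in either direction and the median was -0.03. The nearest gene on the *Wdr25* side, *Wars*, a tryptophanyl-tRNA synthetase, differed by 0.06 (adjusted p = 0.906). The nearest on the *Dio3* side, *Ppp2r5c*, a regulatory subunit of protein phosphatase PP2A, differed by 0.13 (adjusted p = 0.591). *Degs2*, a sphingolipid desaturase, had the lowest value, -0.35 (adjusted p = 0.382), followed by *Cyp46a1*, a cholesterol hydroxylase, at -0.32 (adjusted p = 0.322). *Yy1*, a zinc finger factor, was at -0.30 (standard error 0.07, adjusted p = 0.143), a 1.23-fold difference that fell short of the fold threshold.
Within the interval the RefSeq table lists 100 further genes, of which 61 are miRNAs, 19 small nucleolar RNAs, 14 long noncoding RNAs and 6 pseudogenes. Only 4 of them had a probe matched by transcript. *6430411K18Rik* and *3110009F21Rik* were well above background in no liver. *Gm34785* differed by -0.22 (standard error 0.16, adjusted p = 0.632), and it was above background on 4 of 4 WT and 2 of 4 KO arrays. *Dio3os*, the antisense neighbor of *Dio3*, read -1.28, -1.19, -1.14 and -2.89 in WT and -1.47, -1.21, -1.09 and -1.44 in KO liver. It was above background on all arrays, and its difference was 0.32 (standard error 0.37, adjusted p = 0.766). WT 4 alone stood low, and the other 7 livers lay between -1.47 and -1.09.

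**Figure D3:**
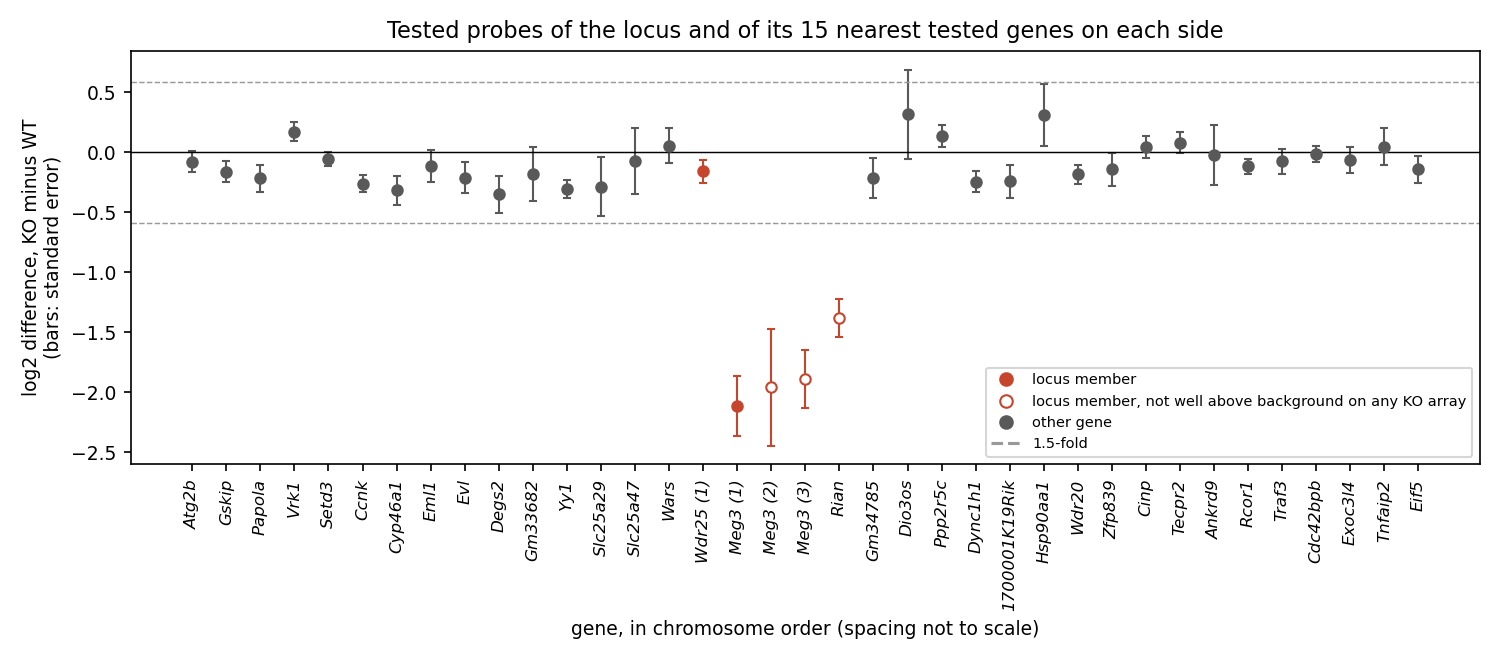
Differences between KO and WT liver (y axis, log2, bars standard errors) of the fitted probes of the locus (red) and of the other fitted genes in and around it (grey), in chromosome order on the x axis with spacing not to scale. Dashed lines mark 1.5-fold. The *Meg3* and *Rian* probes lie from -2.11 to -1.38, and the 30 flanking genes from -0.35 to 0.31.

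Other imprinted genes were examined as a list of 30 genes outside the locus. Of these, 20 had a fitted probe and 0 were called by limma, with 4 at an unadjusted p under 0.05 and a median difference of -0.09. The largest differences were those of *Asb4*, at -0.71 (adjusted p = 0.311), and *Ppp1r9a*, at -0.56 (adjusted p = 0.309), neighbors in another imprinted cluster. *Snrpn*, which codes for a spliceosome protein, was at 0.31 (adjusted p = 0.171), a 1.24-fold difference below the fold threshold. *Igf2*, the fetal growth factor, and the noncoding RNA *H19*, its imprinted partner, were well above background in no liver.
Genes that keep imprints, methylate DNA or form Polycomb complexes numbered 22 in the list. Of the 19 fitted, 0 were called, with 4 at an unadjusted p under 0.05 and a median of -0.06. Those 4 were *Yy1*, at -0.30, and *Smchd1*, at -0.26 (limma adjusted p = 0.188), and in the other direction *Ezh2*, at 0.22, and *Tet2*. Of the 19, 12 were below 0 and 7 above. *Uhrf1*, which brings DNMT1 to replicating DNA, had the largest value, 1.00 (standard error 0.45, adjusted p = 0.393), and *Tet2*, a methylcytosine oxidase, followed with 0.38 (adjusted p = 0.288). *Dnmt1*, the maintenance methyltransferase, differed by 0.09 (adjusted p = 0.786). *Zfp57*, whose hexamer was sought in the promoters, was above background on 1 of 4 arrays in each genotype and was not fitted.
Fetal liver genes and their repressors gave 7 fitted genes of 12 and 0 calls, with 2 at an unadjusted p under 0.05 and a median of -0.17. Those 2 were *Zhx2*, at -0.38 (limma adjusted p = 0.31), and *Trim71*, at -0.21 (limma adjusted p = 0.373). Of the 7, 5 were below 0 and 2 above. The list joins fetal genes with their repressors, so its median has no single direction to read. *Hmga2*, a fetal chromatin protein, had the largest difference, 1.101 (standard error 0.89, adjusted p = 0.65), which rested on KO 2. *Afp*, the fetal serum protein, was at 0.67 (adjusted p = 0.402).
Genes of thyroid hormone handling, the substrate side of *Dio3*, gave 10 fitted genes of 12, 0 calls, 1 unadjusted p under 0.05 and a median of -0.10. *Slc16a10*, an amino acid and thyroid hormone transporter, differed by -0.24 (adjusted p = 0.697), and *Dio1*, the activating deiodinase of the liver, by -0.15 (adjusted p = 0.859). *Dio2* was well above background in no liver.

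Markers of the cell types that the liver pieces could hold were set beside the *Meg3* and *Rian* values. All 18 hepatic stellate cell markers were above background on all arrays and 0 were called, with 4 at an unadjusted p under 0.05. Their median was -0.08, and their summed signal, as a multiple of the 75th percentile of each array, was 188 to 232 in WT and 184 to 201 in KO liver. *Col1a1*, a fibrillar collagen, had the lowest value, -0.95 (standard error 0.45, adjusted p = 0.416), and its partner chain *Col1a2* was at -0.61 (adjusted p = 0.424). *Lrat*, the enzyme that stores retinol as esters, was at 0.50 (adjusted p = 0.272). With 1 liver left out, a single stellate marker passed in 2 fits, namely the proteoglycan *Lum* without WT 1, at -0.61 (adjusted p = 0.198), and *Lrat* without KO 1, at 0.67 (adjusted p = 0.123).
All 13 endothelial markers were above background and 0 were called, with 1 at an unadjusted p under 0.05, a median of 0.01 and sums of 119 to 122 in WT and 109 to 127 in KO liver. *Lyve1*, a hyaluronan receptor of sinusoidal endothelium, was at -0.52 (adjusted p = 0.314) and passed the thresholds when WT 4 was left out, at -0.71 (adjusted p = 0.0908). *Cdh5*, an endothelial cadherin, was at 0.13 (adjusted p = 0.66).
Of 8 Kupffer cell markers 1 was called, the scavenger receptor *Marco*, with means of 3.02 in WT and 1.80 in KO liver and a difference of -1.22 (standard error 0.25, limma adjusted p = 0.0983). That call was lost without WT 3 (adjusted p = 0.21), without KO 2 (adjusted p = 0.213) and with no filter on dim probes (adjusted p = 0.233). The other 7 ran from -0.17 to 0.12, the list median was -0.08, and the sums were 92.3 to 151 in WT and 78.1 to 129 in KO liver. The part of *Marco*-expressing cells in the *Meg3* difference was not tested.
Cholangiocyte markers summed to 5.56 to 9.82 in WT and 5.69 to 8.22 in KO liver, adipocyte markers to 7.06 to 9.43 and 7.96 to 8.87, skeletal muscle markers to 0.606 to 0.683 and 0.644 to 0.800, erythroid markers to 419 to 512 and 289 to 512, and hepatocyte markers to 4210 to 4590 and 4060 to 4370, with 0 called in each. The limma unadjusted p was under 0.05 for 2 erythroid, 1 hepatocyte and 1 cholangiocyte marker, and for 0 adipocyte and 0 muscle markers. All 5 fitted erythroid markers were below 0, with a median of -0.17, beside -0.03 over all genes. Adrenal markers, of a gland near the liver, summed to 5.44 to 10.6 in WT and 4.07 to 7.29 in KO liver. Of the 12 adrenal markers, 5 were above background on all arrays, and 0 of the 6 fitted were called. The steroid enzyme *Cyp21a1* had the largest difference, -0.45 (adjusted p = 0.456), with means of 1.90 in WT and 1.45 in KO liver. *Mc2r* followed at -0.25 (adjusted p = 0.843). The steroid enzymes *Cyp11a1*, *Cyp11b1* and *Cyp11b2*, and *Dbh*, *Chga* and *Chgb*, were well above background in no liver. Pancreatic acinar markers summed to 44.0 to 56.6 in WT and 28.5 to 44.1 in KO liver, 0 of the 5 fitted were called, and *Prss2*, *Cela3b*, *Cpa1*, *Cpb1*, *Pnlip* and *Try4* were well above background in no liver. Of the fitted acinar markers the largest differences were those of the elastases *Cela1*, at -0.54 (standard error 0.20, adjusted p = 0.292) with means of 5.199 in WT and 4.66 in KO liver, and *Cela2a*, at 0.33 (adjusted p = 0.743). The part of acinar tissue in the *Meg3* difference was not tested.

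**Figure D4:**
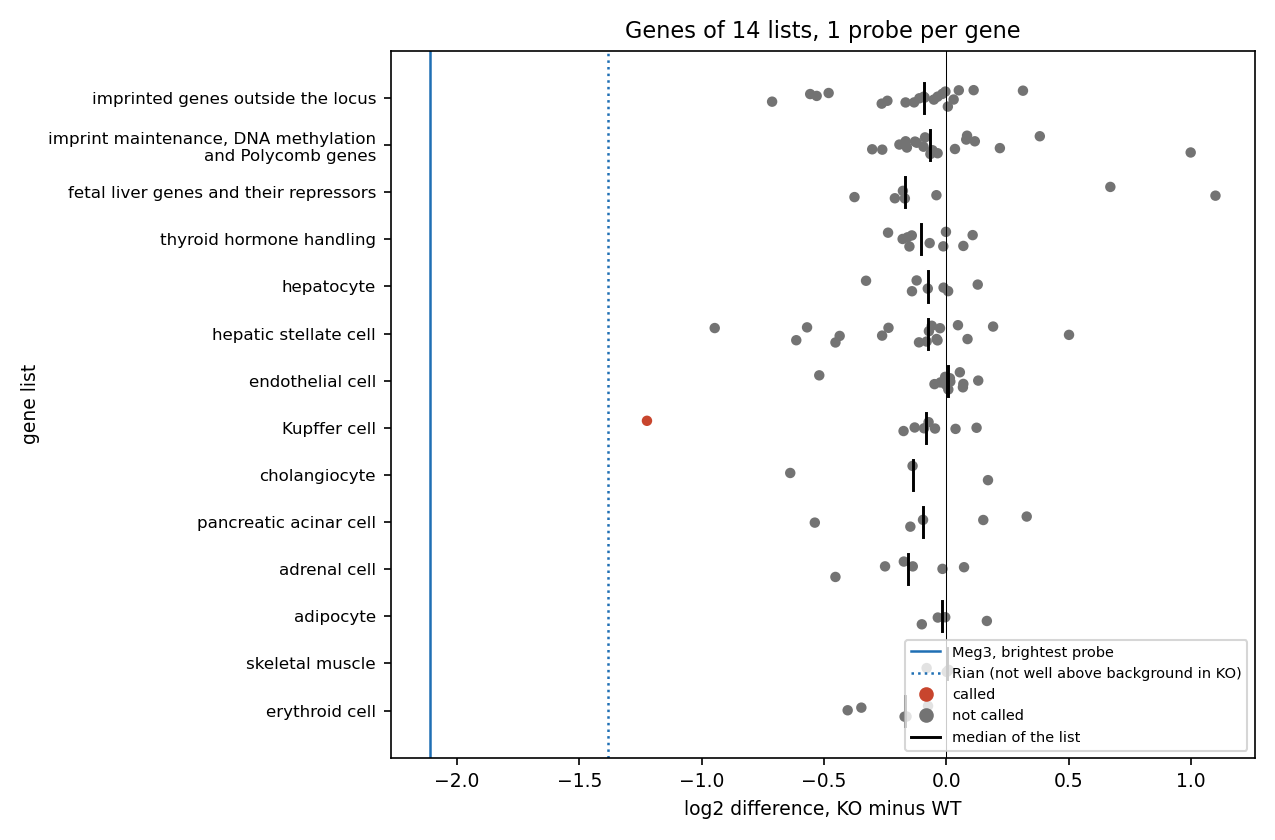
Differences between KO and WT liver (x axis, log2) of the fitted genes of 14 lists (y axis), 1 probe per gene. Red points passed the thresholds, grey points did not, and black bars are list medians. Blue lines give the brightest *Meg3* probe at -2.11 and *Rian* at -1.38, and *Marco* at -1.22 is the lone red point.

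The genes whose pattern over the 8 arrays was most like that of the brightest *Meg3* probe were sought among 13558 genes above background on all arrays. By Pearson correlation of log2 signal they were *Azgp1* (r = 0.968), *Akap8l* (0.967), *Qpct* (0.962), *Agpat3* (0.955) and *Proc* (0.951). This measure takes in both the genotype difference and the spread within genotypes. For deviations from the genotype means, r was 0.845 for *Azgp1*, 0.595 for *Akap8l*, 0.627 for *Qpct*, 0.418 for the deleted gene *Agpat3* and 0.823 for *Proc*. Apart from *Agpat3* the differences of these genes were small, from -0.38 for *Akap8l* to -0.10 for *Proc*. With the genotype means removed, the closest were *1110032A03Rik* (r = 0.960), *Dhx34* (0.946), *Ppp4r1l-ps* (0.946), *Fbrs* (0.943) and *Cdh13* (0.936), whose differences ran from -0.27 for *Fbrs* to 0.09 for *Ppp4r1l-ps*. No gene was among the first 5 by both measures. With 8 arrays and this many genes compared, such correlations are a description.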

How the data were processed

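Liver RNA of 4 *Agpat3* WT and 4 *Agpat3* KO mice was hybridized to 1-color Agilent arrays. What the authors deposited was, for every array, background-corrected spot intensity values from Agilent Feature Extraction 10.7.1.1 per the file headers, which name the build mm9, and a table of log2 values. The deposited log2 values equalled log2 intensity minus the 75th percentile of each array to within 2.02e-06 for the 56305 probes with 1 spot, after an array offset of at most 0.00848. Whether the p behind the volcano plot was adjusted is not given in the sources used here.

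The same scaling was applied to the scanner intensities, outlier spots were left out, and repeated spots of a probe were averaged. The 29067 of 56605 probes that all 4 arrays of either genotype showed well above background were fitted with lmFit and eBayes (limma 3.58.1, R 4.3.3) and called where the change was over 1.5-fold with a Benjamini-Hochberg adjusted p under 0.2, two-sided. Depth has no counterpart on arrays, and the number of arrays limits the precision. On simulated data with 200 of 29067 probes shifted by 1.5 on the log2 scale, 95.5% were recovered and 13.2% of calls were false. With no probe shifted, 0 were called. The simulated noise was normal and independent between arrays, with no floor for dim spots, and the shift was larger than the 1.5-fold threshold. The recovery therefore does not cover smaller changes or dim probes such as *Rian*. Probes were named by RefSeq transcript (32994 matched), and sequences are from RefSeq (GRCm38.p6); no coordinates were converted. The members and lists were chosen with earlier results of these data known.

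Named are every probe of the 8 members, *Agpat3*, called genes of a list, otherwise the 2 with the largest difference and its best known members (*Yy1*, *H19*, *Igf2*, *Dnmt1*, *Zfp57*, *Dio1*, *Afp*), the nearest fitted gene on each side, genes inside the interval with a probe, and the 5 most like *Meg3* by each measure; *Lrat*, *Lum*, *Dio2*, *Snrpn*, *Sox9*, outlying genes and undetected markers were named after their values were seen. Of the genes this rule names, 1 is not reported here. A gene was read from its brightest fitted probe. Alternatives were normexp, quantile and median scaling, the deposited log2 values, other filters and thresholds, a replicate block and leaving out each array. Same-numbered arrays deviated with correlations of 0.33, -0.11, 0.10 and 0.32, so the numbers were not taken as pairs.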

Additional observations from a re-analysis of the deposited data

Results flagged for a closer look

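In 6 of 92 groups of 4 arrays examined, 1 array stood far from the other 3. Chance flags about 1 group in 20, and no probe of the 8 locus genes was among the 6. The 6 do not cover every member probe. The second *Dlk1* probe, well above background on no array, read -5.07 in KO 1, beside -6.24 to -6.15 in the other KO livers.

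Inside the interval, the *Dio3os* reading of WT 4 was -2.89, where the other WT livers had -1.28 to -1.14. The KO reading of *Hmga2* in KO 2 was 0.78, where the other KO livers had -3.39 to -3.18, and the *Hmga2* difference of 1.101 rested on it. *Ppp1r9a* in WT 4 was 1.04, beside 0.47 to 0.56. *Mc2r*, the adrenal receptor for corticotropin, was 1.89 in WT 4, beside 0.61 to 0.77. *Adgre1*, a macrophage receptor, was 1.93 in WT 1, beside 2.25 to 2.27. *Lep*, which codes for leptin, was -0.85 in KO 3, beside -0.71 to -0.69. WT 4 accounted for 3 of the 6, and the brightest *Meg3* difference without WT 4 was -2.14.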

How the results depend on the processing

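The *Meg3*, *Rian* and *Wdr25* differences kept their direction in every alternative run, and the counts of called flanking, fetal liver, thyroid and imprint maintenance genes were 0 throughout. Under normexp, which pulls dim spots together, 245 of the fitted probes were called in place of 484, 1 member probe in place of 4, and the difference was -1.49 at *Meg3* (1) and -0.29 at *Rian*. With the mean over all *Meg3* probes the difference was -1.51. Requiring all 8 arrays above background left 1 member probe called, because the dim probes were no longer fitted. The total was 253 with no filter on dim probes, 117 at an adjusted p under 0.05, 160 at a fold change over 2 and 775 at an unadjusted p under 0.05, where 1 imprinted gene outside the locus, *Asb4*, was called. With 1 array left out, the total ran from 257 (without WT 3) to 645 and was 291 without KO 2 and 306 without WT 2, and 3 to 4 member probes were called. *Meg3* then ran from -2.24 to -1.87 and *Rian* from -1.495 to -1.26. The numbers do not pair the mice. With a replicate block the total was 592, 4 member probes were called, and the differences were -2.11 (standard error 0.15) for *Meg3* and -1.38 (standard error 0.10) for *Rian*. *Sox9*, a cholangiocyte marker, was called under the block, at -0.64 (adjusted p = 0.153), and at an unadjusted p under 0.05.

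Signal over background limits what can be said of *Rian*, *Meg3* (2) and *Meg3* (3), whose KO values are bounds. The *Mirg* difference depends on WT 1. *Dlk1*, *Rtl1*, *Begain* and *Dio3* were too dim to compare. With 4 arrays per genotype on 1 slide, slide row and genotype cannot be told apart.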
